A study of Mus musculus with 45 samples.

Results

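The 10 genes described here, Fos, Fosb, Jun, Junb, Egr1, Ier2, Atf3, Nr4a1, Dusp1 and Klf4, are immediate early genes, and their rows were taken by symbol from a table of 24422 genes. Expression was compared between the intact uterine horn and the layers into which it was dissected, and between wildtype (WT) mice and Plag1 knockouts (KO, written Plag1KO in the labels). All 14 females were sexually mature young mice of the CD-1 stock, 7 WT and 7 KO from a colony kept by heterozygote breeding. All had been superovulated with pregnant mare serum followed by hCG and were killed the day after hCG. By the methods, superovulated females were mated with WT studs, while those that gave oocytes were not mated. Which of these 14 mice had been mated was not given in the sources used here. The tissues of a mouse were an intact length of horn (uterus), the inner lining removed by scraping (endometrium) and the stripped wall (myometrium), so that 6 groups of 7 samples were formed. The KO allele was present throughout the body and not in a chosen cell type. No untreated animal or unsuperovulated mouse was among the groups, and the time from death to RNAlater was not given in the sources used here.

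Immediate early genes are transcribed within minutes of a stimulus, without new protein synthesis, when signalling kinases activate factors already bound at their promoters. Serum response factor with its Elk1 partner binds CArG boxes, and CREB binds cAMP response elements. Growth factors, hormones, stretch, wounding and the handling of tissue are known inducers, so these genes are widely used to judge whether dissection altered a sample. Fos, Fosb, Jun and Junb encode subunits of the AP-1 transcription factor, and Atf3 encodes a related bZIP factor of the stress response. Egr1 and Klf4 encode zinc finger factors, Nr4a1 an orphan nuclear receptor, Ier2 a nuclear protein of the early response, and Dusp1 a phosphatase that inactivates MAP kinases and so ends the response.

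The promoters of Fos, Atf3 and Nr4a1 are shown because these were the genes with the largest differences between horn and a layer. Each sequence holds the 250 bases before the RefSeq start site on GRCm38.p6, a later build than the mm9 used for the counts, and runs 5′ to 3′ on the gene's strand. Capitals mark TGACG or its reverse complement CGTCA, the core of the cAMP response element (CRE).
Fos (chr12:85473640-85473889, plus strand): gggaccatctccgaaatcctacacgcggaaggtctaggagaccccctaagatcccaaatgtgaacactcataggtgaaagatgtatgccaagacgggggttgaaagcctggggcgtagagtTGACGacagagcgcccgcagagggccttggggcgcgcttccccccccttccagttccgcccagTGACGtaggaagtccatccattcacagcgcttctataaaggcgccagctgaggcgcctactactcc
Atf3 (chr1:191183334-191183583, minus strand): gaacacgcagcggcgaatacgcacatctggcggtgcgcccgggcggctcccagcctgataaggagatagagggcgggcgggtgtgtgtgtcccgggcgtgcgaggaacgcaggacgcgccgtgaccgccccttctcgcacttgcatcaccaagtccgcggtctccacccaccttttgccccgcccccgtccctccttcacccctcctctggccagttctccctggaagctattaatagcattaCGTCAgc
Nr4a1 (chr15:101266596-101266845, plus strand): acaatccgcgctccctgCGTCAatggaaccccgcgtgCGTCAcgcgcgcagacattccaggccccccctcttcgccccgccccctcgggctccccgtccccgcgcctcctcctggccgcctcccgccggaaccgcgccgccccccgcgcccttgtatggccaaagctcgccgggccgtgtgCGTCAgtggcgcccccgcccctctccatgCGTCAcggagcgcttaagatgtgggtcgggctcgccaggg
In Fos a CRE core lay 66 bases and another 129 bases before the start, in Atf3 a single one lay 7 bases before it, and Nr4a1 held 4. RefSeq windows were found for 8 members, and for Ier2 and Egr1 none was used. The CRE core was present on either strand in 7 of these 8, against 17.8% of all 32851 windows of this length. The longer TGACGT, which contains the CRE core, was present in 3 of 8 (Fos, Atf3 and Dusp1) against 6.47%. A CArG box was found in 0 of 8 windows and in 1.47% of all, and the AP-1 site TGACTCA in 0 of 8 and in 4.46%. A match is only a match of letters in this window.

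Counts were given for 45 libraries, and repeat libraries of a mouse were summed, so that each tissue had 14 samples. Library totals ranged from 264095 to 1232992 molecules. Levels are given as CPM, the count relative to the library total, corrected by TMM factors. The defining markers of each tissue were detected. In the epithelial and smooth muscle markers the layers differed from horn mainly by depletion, while 4 of 5 stromal markers were higher in myometrium than in horn. All 5 epithelial markers, such as Epcam and Krt8, were lower in myometrium than in horn, and all 5 smooth muscle markers, such as Acta2 and Tagln, were lower in endometrium. Against horn, 0 of 5 epithelial markers passed as higher in endometrium, and 1 of 5 smooth muscle markers, Myh11, was higher in myometrium. Separation was incomplete in some samples, since the summed level of the muscle markers was 10029 CPM in the endometrium of WT mouse 3 and 10332 in that of KO mouse 13, against 197 to 3601 CPM in the other 12. Globin genes Hbb-b1, Hbb-b2, Hba-a1 and Hba-a2 were listed at 0 in every group, while the erythroid gene Alas2 had counts in all 3 tissues. Plag1 reached at most 1 count in a library, in all 7 counts, so that its level could not check the genotype labels. In bulk tissue, fewer cells of a type and less RNA per cell cannot be told apart.

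None of the 10 members was called higher in either layer than in the intact horn, and the calls that were made were all lower. With the mouse as a block in the fit, Jun alone was called higher, in myometrium (0.54, adjusted p = 0.0426). In endometrium 0 of 10 members were higher, where 3.89% of 14822 tested genes were, and 2 of 10 were lower, where 6.31% were. In myometrium 0 of 10 were higher, where 11.4% of all genes were, and 4 of 10 were lower, where 14.1% were. The median log2 fold change of the members against horn was -0.18 in endometrium and -0.89 in myometrium, and that of all genes was 0.04 and -0.02. With spike-in scaling the median of all genes moved to -0.17 and -0.58, 7 members were lower in myometrium and 3 in endometrium, and Jun, not called, went from 0.49 to -0.12 in myometrium. This scaling also raised the number of all genes called lower in both layers, so 14.1% and 6.31% are not its background. The counts of all genes under it are given in the last section. Tests were edgeR quasi-likelihood F tests across all 14822 genes with Benjamini-Hochberg adjustment, and a log2 fold change is given with its standard error. Unless a block is named, the fit had no term for the mouse, so the 3 tissues of a mouse entered as if independent.

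**Figure D1:**
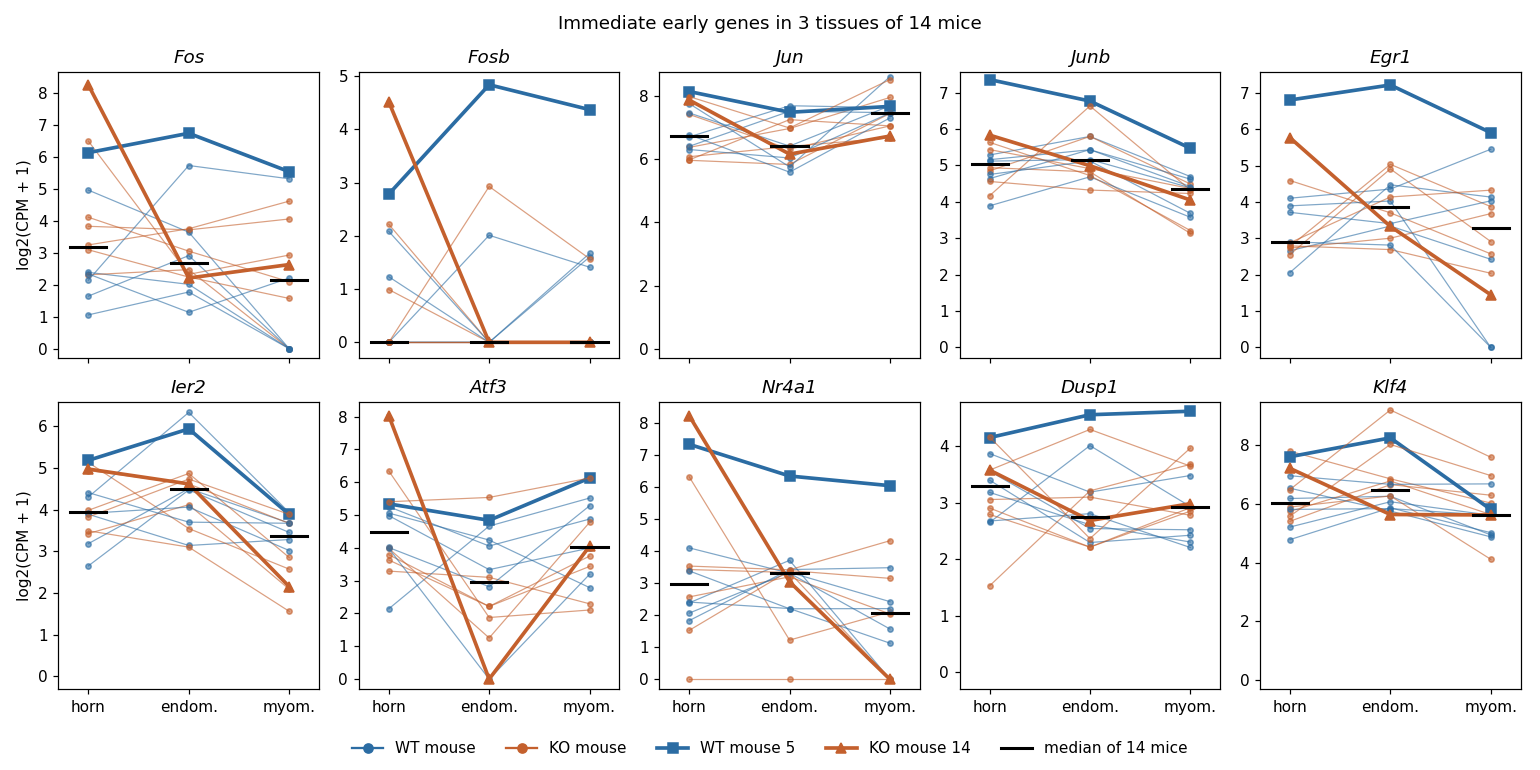
Level of each immediate early gene as log2(CPM + 1) in the intact horn, endometrium (endom.) and myometrium (myom.), with a line for each of 14 mice (blue WT, orange KO) and a black bar at the median of 14. WT mouse 5 lies high in all 3 tissues for most genes, whereas KO mouse 14 is high in the horn, as at 302 CPM for Fos, and low in its own layers, as at 3.62 and 5.19 CPM.

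If the horn were a mixture of these layers alone, its level would lie between theirs, and the lower layer could exceed it only where both layers did. The mice in which the lower layer exceeded the horn were counted as a description over log2 CPM. No member did so in at least 12 of 14 mice, where 126 of 14822 genes did (0.850%). The lower layer was above the horn in 6 of 14 mice for Egr1, in 5 for Jun and for Klf4, in 4 for Dusp1, in 3 for Fosb, Ier2 and Nr4a1, in 2 for Fos and Atf3 and in 1 for Junb. The median over all genes was 3 mice.

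Fos, whose product pairs with Jun proteins in AP-1, spread widely within every group. In the horn it was 1.08 CPM at the lowest, 4.05 at the median and 69.0 at the highest in WT, and 3.96, 13.2 and 302 in KO. In endometrium the lowest, median and highest values were 1.20, 6.52 and 106 CPM in WT and 3.62, 4.55 and 12.5 in KO. In myometrium they were 0, 0 and 45.3 CPM in WT and 0, 5.19 and 23.5 in KO. All groups overlapped, and a few samples far above the rest set the group means. Myometrium was below horn by a log2 fold change of -1.72 ± 0.66 (adjusted p = 0.0485), with the lower value in 11 of 14 mice. This count was reached by 15.5% of all genes. Endometrium stood at -1.36 ± 0.64 (adjusted p = 0.173). The myometrial call was lost in 10 of the 14 fits that left out 1 mouse, namely mouse 1, 2, 3, 4, 5, 8, 10, 12, 13 or 14, with -0.97 (adjusted p = 0.296) without KO mouse 14.

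Nr4a1, which encodes the nuclear receptor Nur77, gave the largest differences. Its lowest, median and highest levels were 2.56, 4.32 and 161 CPM in WT horn and 0, 9.76 and 300 in KO horn. They were 3.60, 9.12 and 80.4 CPM in WT endometrium and 0, 8.19 and 9.69 in KO endometrium. In myometrium they were 0, 3.62 and 65.1 CPM in WT and 0, 3.11 and 19.1 in KO. The medians of horn and endometrium were thus close, 7.20 and 9.02 CPM over 14 mice, while the means were 43.3 and 12.3. The fitted difference was -1.98 ± 0.66 in endometrium (adjusted p = 0.0436) and -2.40 ± 0.70 in myometrium (adjusted p = 0.00875). Endometrium was below horn in 8 of 14 mice and myometrium in 9, counts reached by 33.6% and 28.7% of all genes. With the mouse as a block in the fit, the endometrial value was -1.04 (adjusted p = 0.115). Without KO mouse 14 the values were -1.15 (adjusted p = 0.271) and -1.46 (adjusted p = 0.117), and the endometrial call was also lost without WT mouse 1, 3, 5, 7, 8, 10 or 12 or KO mouse 4.

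Atf3 was lower in the scraped mucosa. Its lowest, median and highest values were 3.41, 30.6 and 39.6 CPM in WT horn, 8.79, 14.8 and 261 in KO horn, 0, 15.6 and 27.6 in WT endometrium, and 0, 3.64 and 45.5 in KO endometrium. In myometrium they were 5.91, 28.4 and 69.0 CPM in WT and 3.30, 12.4 and 69.0 in KO. Endometrium was below the horn of the same mouse in 12 of 14 mice, which was so for 6.69% of all genes. The log2 fold change was -1.63 ± 0.49 (adjusted p = 0.0249), and myometrium stood at -0.69 ± 0.48 (adjusted p = 0.305). The endometrial call was lost without mouse 1, 3, 4 or 14, with -1.01 (adjusted p = 0.169) without KO mouse 14, and it was kept with the mouse as a block.

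Junb and Ier2 were lower in the stripped wall, and here the difference did not rest on a single mouse. Junb encodes an AP-1 subunit that can restrain c-Jun. Its lowest, median and highest levels were 13.8, 33.7 and 163 CPM in WT horn and 17.0, 29.7 and 56.0 in KO horn, against 10.9, 20.4 and 43.4 in WT myometrium and 7.78, 17.7 and 21.5 in KO myometrium. Myometrium was the lower in 13 of 14 mice, a count reached by 6.10% of all genes, with a log2 fold change of -1.16 ± 0.30 (adjusted p = 0.00303). Endometrium did not pass the test against horn (0.08 ± 0.28, adjusted p = 0.903), with 24.8, 42.1 and 108 CPM in WT and 19.0, 29.1 and 98.3 in KO. Ier2 was 5.28, 14.0 and 35.3 CPM in WT horn and 9.76, 14.8 and 34.1 in KO horn, and it was 7.11, 11.8 and 14.3 in WT myometrium and 1.95, 4.95 and 13.8 in KO myometrium. Myometrium was the lower in 11 of 14 mice, a count reached by 15.5% of all genes (-1.09 ± 0.32, adjusted p = 0.00977). Both calls held in each of the 14 fits without 1 mouse. The Ier2 call was lost with counts thinned to the shallowest sample (adjusted p = 0.0722). It was also lost in the smaller sets of library code rows A to C (adjusted p = 0.0623) and D to F (adjusted p = 0.161). The Junb call was lost in rows D to F (adjusted p = 0.200). Beside these results, the summed epithelial markers ranged from 538 to 1615 CPM in horn and from 77.7 to 670 CPM in myometrium, with all 5 markers detected in every group, and their part in the result was not tested.

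**Figure D2:**
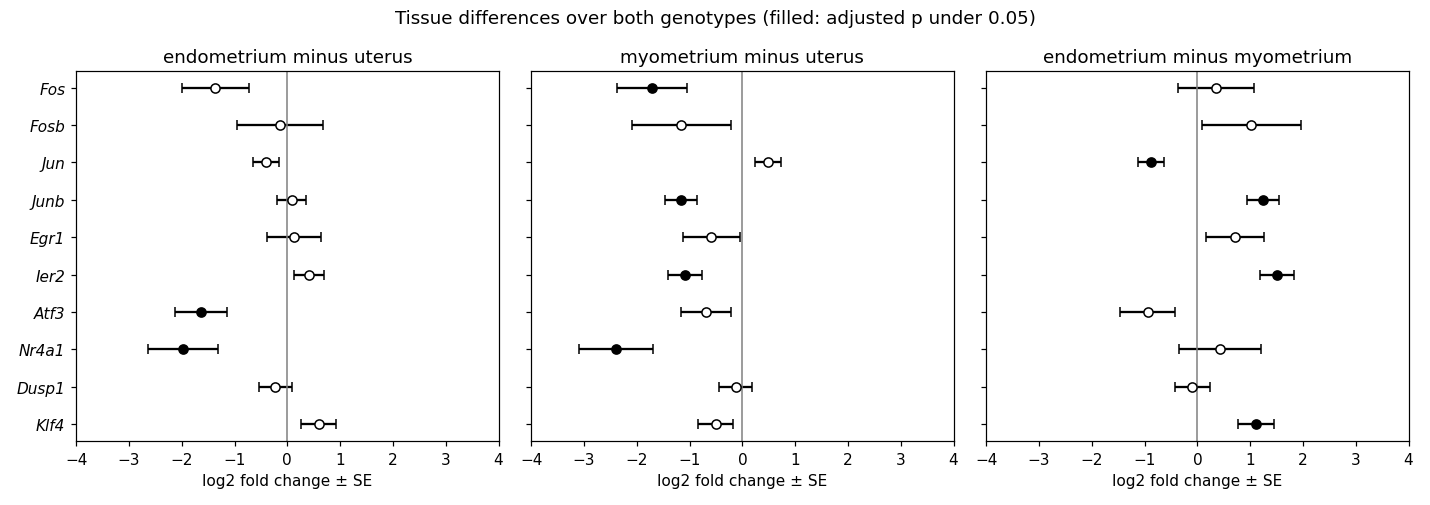
Log2 fold change with its standard error for each immediate early gene in 3 tissue comparisons over both genotypes, with 14 samples per tissue and filled points for calls. The calls against uterus, 2 in endometrium and 4 in myometrium, all lie below 0.

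Without the block, the other members did not pass the test against horn in either layer. Jun encodes the founding partner of Fos. Its lowest, median and highest levels over both genotypes were 61.5, 106 and 282 CPM in horn, 47.2, 84.1 and 206 in endometrium and 101, 176 and 391 in myometrium. Myometrium was above horn in 11 of 14 mice (0.49 ± 0.25, adjusted p = 0.146), a difference called with the mouse as a block. Egr1, which drives growth and repair genes, was 3.17, 6.42 and 111 CPM in horn, 5.46, 13.7 and 148 in endometrium and 0, 9.18 and 59.1 in myometrium. Its log2 fold change was 0.13 ± 0.51 in endometrium and -0.59 ± 0.53 in myometrium (adjusted p = 0.924 and 0.446).

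Klf4, a factor of epithelial differentiation and growth arrest, was 26.6, 65.2 and 221 CPM in horn, 48.9, 88.3 and 589 in endometrium and 16.3, 48.6 and 192 in myometrium. Endometrium was above horn in 10 of 14 mice (0.60 ± 0.33, adjusted p = 0.266). Dusp1 had 1.88, 8.83 and 17.0 CPM in horn, 3.64, 5.72 and 22.6 in endometrium and 3.62, 6.59 and 23.7 in myometrium. Its log2 fold changes were -0.22 ± 0.31 and -0.13 ± 0.32 (adjusted p = 0.718 and 0.809). Fosb, the AP-1 subunit known for lasting induction in brain, had no count in 8 of 14 horn samples, 11 of 14 endometrium samples and 9 of 14 myometrium samples, and its highest values were 21.9, 27.6 and 19.7 CPM.

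Between the layers, 3 of 10 members were higher in endometrium than in myometrium, where 14.6% of genes were, and 1 of 10 was lower, where 12.8% were. Ier2 was higher by a log2 fold change of 1.50 ± 0.32 (adjusted p = 0.000287), Junb by 1.24 ± 0.30 (adjusted p = 0.00128) and Klf4 by 1.10 ± 0.34 (adjusted p = 0.0114). Jun was the exception and was higher in myometrium (-0.88 ± 0.25 for endometrium minus myometrium, adjusted p = 0.00583), a call lost with spike-in scaling (-0.62, adjusted p = 0.0881). Atf3 stood at -0.94 ± 0.51 (adjusted p = 0.177) and passed with the mouse as a block (-1.14, adjusted p = 0.0255). It also passed without KO mouse 13 (-1.45, adjusted p = 0.0385) and without the endometrium of that mouse alone (-1.83, adjusted p = 0.00756), the sample with the most muscle marker RNA among the 14. The epithelial markers were all higher in endometrium, from 2.50 to 2.97 on the log2 scale, and the smooth muscle markers all lower. Of 5 stromal markers, 4 were lower in endometrium than in myometrium, among them Col3a1 (-2.95) and Col1a1 (-2.63). Against horn, 4 of 5 were higher in myometrium, of which Dcn changed sign with spike-in scaling and Col1a1 stood at 2.01, and in endometrium 3 were lower and 1 higher. Their part in these differences was not tested.

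The genotypes were then taken apart. In WT mice, 0 of 10 members passed in endometrium against horn (2.96% of all genes in either direction) or in myometrium against horn (9.01%). At an unadjusted p under 0.05, 1 of 10 members passed in each, where 16.9% of all genes did in endometrium and 24.5% in myometrium. The members were Ier2 in endometrium (0.86 ± 0.41) and Junb in myometrium (-1.13 ± 0.41). In KO mice, 2 of 10 were lower in endometrium, where 1.71% of genes were, and 0 were higher, where 0.621% were. These were Fos (-3.27 ± 0.93, adjusted p = 0.0462) and Atf3 (-2.44 ± 0.68, adjusted p = 0.0410). In KO myometrium 3 of 10 were lower, where 6.87% of genes were, and 0 were higher, where 4.68% were. These were Nr4a1 (-3.45 ± 1.04, adjusted p = 0.0223), Ier2 (-1.58 ± 0.48, adjusted p = 0.0224) and Fos (-2.91 ± 0.94, adjusted p = 0.0349). With the mouse as a block, Junb was also lower there (-1.26, adjusted p = 0.00487). Without KO mouse 14 none of these 5 KO calls remained, with adjusted p from 0.0853 to 0.387. In endometrium the Fos call was also lost without KO mouse 2, 4, 6, 9, 11 or 13, and that of Atf3 without WT mouse 1 or 3 or KO mouse 2, 4, 6, 9 or 11. In myometrium the Fos call was also lost without KO mouse 2, 4 or 13, that of Ier2 without KO mouse 4 or 6 and that of Nr4a1 without KO mouse 4.

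That KO mice carry these calls does not show a difference between the genotypes. In the interaction test, 0 of 10 members and 0% of 14822 genes differed in the endometrial contrast, and likewise 0 of 10 and 0% in the myometrial one. At an unadjusted p under 0.05, 760 genes (5.13%) and 1 of 10 members passed for endometrium, by the same edgeR test. For myometrium 630 genes (4.25%) and 1 of 10 members passed. The members were Fos in endometrium (-3.80 ± 1.28, adjusted p = 0.913) and Fosb in myometrium (-4.31 ± 1.89, adjusted p = 1.00).

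No immediate early gene differed between KO and WT within a tissue after adjustment. Calls were 0 of 10 members in uterus (0% of 12959 genes), 0 of 9 in endometrium (0% of 13004), where Fosb fell under the filter, and 0 of 10 in myometrium (0% of 12991). In uterus, Fos was 1.91 ± 0.87 higher in KO on the log2 scale (adjusted p = 0.836) and Atf3 1.32 ± 0.62 (adjusted p = 0.863). In endometrium the sign for Fos was the opposite, -1.87 ± 0.72 (adjusted p = 0.908). In myometrium Fosb stood at -2.89 ± 1.15 and Klf4 at 0.78 ± 0.34, both with an adjusted p of 1.00. These 5 were the member comparisons with an unadjusted p under 0.05, and 731, 676 and 548 of all genes reached it in uterus, endometrium and myometrium. The genotypes overlapped in each of them.

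**Figure D3:**
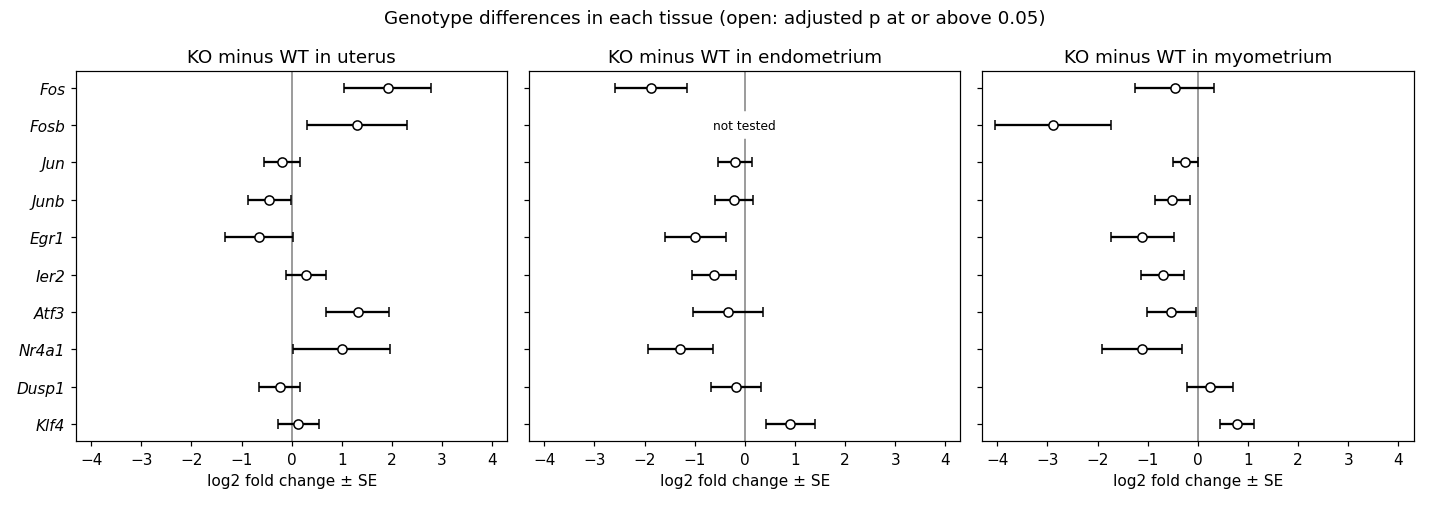
Log2 fold change of KO minus WT with its standard error for each immediate early gene in uterus, endometrium and myometrium, 7 mice per genotype. All points are open because none had an adjusted p under 0.05, and Fos lies at 1.91 in uterus and -1.87 in endometrium.

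Single mice stood apart across the members, and they differed between horn and layers. WT mouse 5 had the highest level of 14 for 4 of 10 members in horn, 6 in endometrium and 6 in myometrium, where it was the highest for 8.58%, 11.0% and 9.05% of all genes. Its Egr1 was 111 CPM in horn, 148 in endometrium and 59.1 in myometrium, and its Nr4a1 was 161, 80.4 and 65.1. Its endometrium was shallow, with 299973 counts against 256298 in the shallowest sample, and a spike-in share of 2.79%. Levels there rest on few counts, such as 32 of Nr4a1 and 11 of Fosb. Its endometrium also had the highest summed epithelial markers of the 14, 4730 CPM against 756 to 2652 in the others, and so had its myometrium, 670 CPM against 77.7 to 555. The part of these markers was not tested.

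KO mouse 14 was high in the horn alone. It had the highest horn level for 4 of 10 members (7.31% of all genes), with 302 CPM of Fos, 300 of Nr4a1, 261 of Atf3 and 21.9 of Fosb. In its endometrium Fos was 3.62, Nr4a1 7.25 and Atf3 0 CPM, and in its myometrium 5.19, 0 and 15.6, and it was highest for 0 members in either layer. KO mouse 4 was second in the horn for Fos (88.8 CPM) and Atf3 (80.3 CPM), and also high for Nr4a1 (79.1 CPM), with 4.01, 2.67 and 1.34 CPM in its endometrium. The horn of mouse 14 also held the highest summed smooth muscle markers (16804 CPM) and endothelial markers (140 CPM) of the 14 horns, the highest Alas2 (30.3 CPM), the sole erythroid marker with counts, and 3.36 CPM of neutrophil markers where the others had 0 to 136, and the part of these was not tested.

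WT mouse 7 showed the reverse for Fos, with 3.41 CPM in horn, 52.0 in endometrium and 38.7 in myometrium, while its Ier2 was 18.8 CPM in horn, 79.6 in endometrium and 14.3 in myometrium. KO mouse 11 had the highest Klf4 in both layers, 589 and 192 CPM, with 89.0 in horn. KO mouse 13 had the highest Atf3 in both layers, 45.5 and 69.0 CPM, with 41.4 in horn, and WT mouse 5 also reached 69.0 CPM in myometrium. Its 3 repeat endometrium libraries gave 38.8, 63.6 and 39.3 CPM of Atf3 before TMM scaling, so this level was found in each.

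Levels of the members in a mouse were then compared between pairs of its tissues. Across 14 mice, Pearson's r of log2 CPM between endometrium and myometrium had a median of 0.67 over the 10 members, and 0.05 over all genes. Between uterus and endometrium the median was 0.22 over the members and 0.10 over all genes, and between uterus and myometrium it was 0.24 and 0.04. The layer to layer r was 0.90 for Fosb, 0.77 for Fos, 0.73 for Klf4, 0.70 for Junb, 0.69 for Nr4a1, 0.65 for Egr1, 0.60 for Dusp1, 0.56 for Atf3 and 0.55 for Ier2, with Spearman's rho from 0.47 to 0.78 for these 9. Jun was the exception, with r = 0.09. Without the 2 mice farthest from the median endometrial level, r stayed at 0.67 for Klf4 and 0.62 for Junb, was 0.37 to 0.44 for Fos, Fosb, Egr1, Ier2 and Atf3, and was 0.16 for Dusp1 and 0.10 for Nr4a1. The order of the pairs then changed for some members. Without the 2 mice farthest from the median horn level, r between uterus and endometrium was 0.62 for Fos, 0.46 for Atf3 and 0.41 for Dusp1, and between uterus and myometrium 0.69 for Dusp1 and 0.43 for Fos, each above the value between the layers, while for Junb it was -0.43 and -0.17 in these pairs and for Klf4 0.06 and 0.18. The values are descriptions without a test, since the layers of a mouse share its genotype, code row block and any tissue carried over from one layer to the other, and since the genes vary together.

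**Figure D4:**
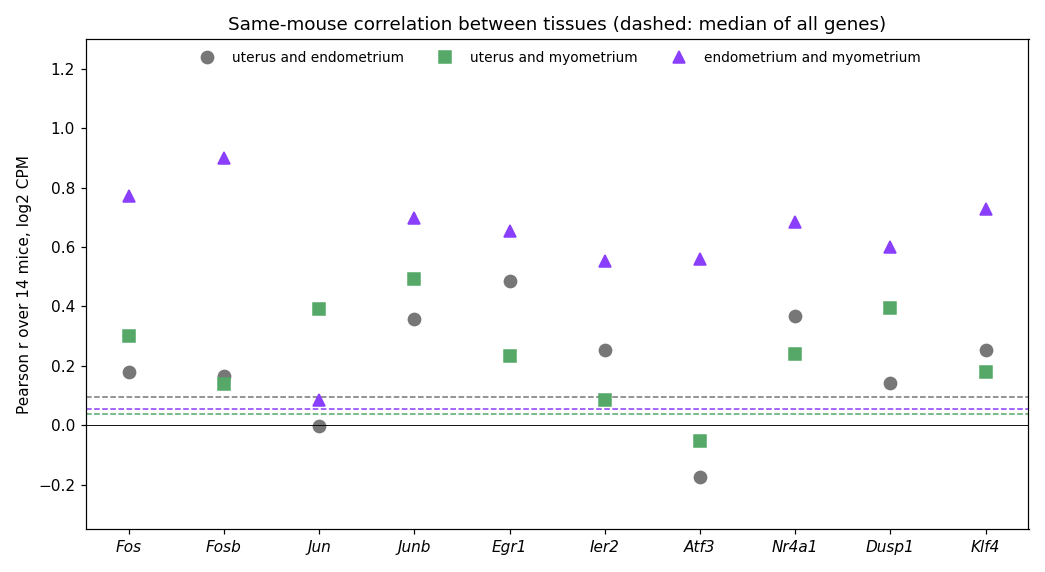
Pearson's r over 14 mice for each immediate early gene between pairs of tissues of the same mouse, on log2 CPM, with dashed lines at the median of all genes for each pair. The triangles, endometrium against myometrium, lie above both other symbols for every gene but Jun.

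The members varied together between samples. Each gene was set against the mean log2 CPM of the other members over 42 samples. This r was 0.89 for Nr4a1, 0.77 for Fos and for Fosb and 0.76 for Egr1, and it was lowest for Jun at 0.30. Among 2867 other genes whose mean log2 CPM reached 5, the 5 most like that mean were Elof1 (r = 0.60), Arl4c (0.57), Ier3 (0.54), Slc3a2 (0.53) and B3gnt8 (0.53). The points share depth, tissue and mouse.

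Genes around the members in the pathway were taken from fixed lists. The shares of all 14822 genes called against horn are to be set beside each list. They were 3.89% higher and 6.31% lower in endometrium, and 11.4% and 14.1% in myometrium. Among the upstream factors, Elk1 (0.82 ± 0.28, adjusted p = 0.0288) and Crebbp (0.67 ± 0.24, adjusted p = 0.0313) were higher in myometrium than in horn, and neither passed in endometrium. Creb1 was higher in myometrium than in endometrium (-1.21 ± 0.30 for endometrium minus myometrium, adjusted p = 0.00163). Of 14 bZIP partners, 2 were higher in endometrium and 3 in myometrium, and none was lower. Jund, the AP-1 subunit not typical of the early response, had a mean of 74.4 ± 120 CPM in horn, 147 ± 104 in endometrium and 136 ± 47.0 in myometrium (SD, n = 14), and it was higher in both layers by 1.17 ± 0.31 (adjusted p = 0.00849) and 1.07 ± 0.31 (adjusted p = 0.00749). Cebpd, a bZIP factor of the acute phase response, was higher by 0.90 ± 0.26 and 0.92 ± 0.26 (adjusted p = 0.0183 and 0.00659). With spike-in scaling Jund stood at 0.73 and 0.43 and did not pass. The higher calls of Elk1, Crebbp and Cebpd against horn were lost as well.

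Of the 11 Egr, Nr4a and Klf relatives, 10 were tested, and 2 were higher in both layers and none lower. Klf2, a factor of quiescent endothelium and lymphocytes, was higher by 1.14 ± 0.28 in endometrium (adjusted p = 0.00549) and 0.88 ± 0.29 in myometrium (adjusted p = 0.0201). Klf9, a hormone-responsive factor of the uterus, was higher by 0.96 ± 0.22 and 1.04 ± 0.23 (adjusted p = 0.00282 and 0.000449). Neither Klf2 nor Klf9 passed in either layer with spike-in scaling. Egr3 stayed at 0 to 5.03 CPM in every sample and did not pass in either layer, and neither did Nab1, a corepressor of Egr1.

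Of 22 feedback inhibitors, 21 were tested. In endometrium 2 were higher, Btg1 (0.66 ± 0.19, adjusted p = 0.0169) and Ier5l (1.16 ± 0.31, adjusted p = 0.00909), and in myometrium 4 were higher, of which Zfp36l1 changed sign with spike-in scaling, and 2 were lower. The lower ones were Ier3, an inhibitor of cell death, at 446 ± 308 CPM in horn and 94.4 ± 79.9 in myometrium (SD, n = 14), and Nfkbia, the inhibitor of NF-kappaB, at 236 ± 59.9 and 114 ± 49.1. A further list of 22 response genes was named secondary. Its genes were not checked for a need of new protein synthesis, so it can hold further immediate early genes. Of these 22, 20 were tested. In endometrium only Rhob passed (0.93 ± 0.22, adjusted p = 0.00383). In myometrium Rhob was higher and 4 were lower, which were Ptgs2, the inducible cyclooxygenase (-2.37 ± 0.69, adjusted p = 0.00876), Gadd45a (-1.06 ± 0.30, adjusted p = 0.00722), Myc (-0.96 ± 0.32, adjusted p = 0.0232) and Ccl2 (-1.95 ± 0.68, adjusted p = 0.0277).

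The heat shock genes are another class that answers handling, and their calls went both ways. Of 14, 2 were higher in endometrium, where 3.89% of all genes were, and 2 were lower, where 6.31% were. In myometrium 2 were higher, where 11.4% were, and 3 were lower, where 14.1% were. These counts are too small to set the class apart from other genes. Hspa8, the constitutive HSP70, was 56.6 ± 20.0 CPM in horn and 110 ± 60.1 in endometrium (SD, n = 14; log2 fold change 0.92 ± 0.20, adjusted p = 0.00133). Hspb1, the small heat shock protein HSP27, was 143 ± 34.4 CPM in horn and 290 ± 167 in myometrium (1.02 ± 0.22, adjusted p = 0.000526). In myometrium Hspa1b, an inducible HSP70, was higher (1.26 ± 0.40, adjusted p = 0.0172), while Dnajb1, its inducible partner, was lower (-0.79 ± 0.23, adjusted p = 0.00785). With spike-in scaling, the lower calls of these 6 lists in myometrium were kept, and none of their higher calls against horn passed in either layer. In KO against WT, 0 genes of these 6 lists passed in any tissue.

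Some markers of the serosa and of blood cells also differed between horn and layers. Of 5 serosal markers 4 were lower in each layer, among them Upk3b, at 84.4 ± 51.3 CPM in horn, 4.34 ± 8.15 in endometrium and 17.4 ± 16.5 in myometrium (SD, n = 14). Of 5 neutrophil markers 3 were lower in each layer, among them Retnlg, at 32.8 ± 34.5, 5.30 ± 8.13 and 4.97 ± 5.64 CPM, while Ly6g was higher in endometrium (2.54 ± 0.78, adjusted p = 0.0333). Of 5 leukocyte markers 1 was lower in endometrium and 3 in myometrium, and of 5 endothelial markers 0 passed in either layer. The part of these markers in the lower levels of immediate early genes in the layers was not tested.

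Position on the reference was checked for readings that could be shared. On mm9, as annotated by GENCODE, Fos lies on chromosome 12 from 86814840 to 86818223 (plus strand), Junb on chromosome 8 from 87500811 to 87502617 (minus), Atf3 on chromosome 1 from 192994175 to 193007219 (minus) and Nr4a1 on chromosome 15 from 101097277 to 101105223 (plus). For 8 members no annotated gene overlapped. Jun overlaps BC042782 and Egr1 overlaps Gm17507, both on the opposite strand, and since the use of strand in counting was not given in the sources used here, reads of either partner cannot be told apart.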

How the data were processed

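STRT RNA-seq counts the 5′ ends of polyadenylated transcripts, with a molecular identifier for each molecule, and 92 ERCC spike-in RNAs were added before pooling. The authors deposited a table of raw counts for 45 libraries. According to the methods, reads were mapped to mm9 with TopHat and counted over UCSC gene models with Homer, while the processing notes of the submitters name HTSeq and mm9, and which of the counters made the table was not given in the sources used here. Neither the use of strand nor the handling of reads with several positions was given.

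Samples were grouped by genotype and tissue from the labels. Counts of repeat libraries (KO mouse 13 endometrium, WT mouse 12 myometrium) were summed. Genes that reached 1 CPM in 5 or more samples entered quasi-likelihood F tests (edgeR 4.0.16 with TMM factors, R 4.3.3), adjusted by Benjamini-Hochberg at 0.05. Tissues and the genotype by tissue interaction were compared in a fit of all 6 groups, which held no mouse term, and KO with WT in a fit of each tissue. Sample levels are TMM-scaled CPM. Log2 CPM used a prior count of 2. Totals and summed markers are unscaled CPM. The mouse number in the labels pairs the tissues of an animal. Deviations from group means had a mean r of 0.16, 0.08 and 0.11 within mice (uterus with endometrium, uterus with myometrium, endometrium with myometrium) and -0.03, -0.01 and -0.02 between mice. Library codes placed uterus, endometrium and myometrium mostly in different rows of the code, so code row and tissue cannot be told apart. Rows A to C held mice 1 to 8 and rows D to F mice 9 to 14.

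Members were always named. A gene of the upstream list is not reported here. From the pathway and marker lists, up to 4 genes with the smallest p in either layer against uterus were named by rule, and the other list genes named in the text (such as Zfp36l1, Ccl2, Hspa1b and Dnajb1) were chosen after their values were seen. The members and lists were chosen with earlier results of these data known. Alternatives were DESeq2 1.42.0, RLE factors, spike-in scaling, other filters, separate fits, 1 library per mouse, counts thinned to 256298 per sample, blocks of code rows and each mouse left out. The scripts were tested on simulated data. Library totals of 264095 to 1232992 make counting error large at low levels. Intervals were not given, as the spread between mice was used.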

Additional observations from a re-analysis of the deposited data

Results flagged for a closer look

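In 12 of 60 checks (10 members in 6 groups of 7 mice), a single mouse lay apart from its group by Dixon's criterion. Chance flags about 1 in 20 independent groups, but these checks share mice and genes that vary together, so that rate is not theirs. Of the 12, 5 were Fosb, and in 2 of these every other mouse was at 0, which fixes the outcome. WT mouse 5 accounted for 8 of the 12. Its uterus stood out with 163 CPM of Junb, 111 CPM of Egr1 and 161 CPM of Nr4a1. Its endometrium stood out with 27.6 CPM of Fosb, 148 CPM of Egr1, 80.4 CPM of Nr4a1 and 304 CPM of Klf4, and its myometrium with 19.7 CPM of Fosb. The 2 groups with every other mouse at 0 were those of KO mouse 13 for Fosb, with 6.61 CPM in endometrium and 1.97 CPM in myometrium, the latter being a single count. KO mouse 14 was apart for Fosb in uterus with 21.9 CPM, and WT mouse 10 for Jun in myometrium with 391 CPM.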

How the results depend on the processing

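No called member changed sign in any alternative. Junb and Ier2 against uterus in myometrium kept their calls in 25 and 23 of 26 alternatives, Nr4a1 in 23 and Fos in 10, and in endometrium Atf3 kept its call in 20 and Nr4a1 in 10. The cause of each change below was not tested, except that blocks of code rows and thinned counts hold fewer samples or counts. For endometrium minus uterus, 1511 genes and 2 members were called. There was 1 member with the mouse as a replicate block (1668 genes), with each pair of tissues in its own fit, with DESeq2, with RLE factors, with 1 library per mouse, with thinned counts (891 genes) and in code rows A to C (610 genes), and 0 in rows D to F (93 genes). For myometrium minus uterus, 3780 genes and 4 members were called, against 7 members with spike-in scaling, 2414 genes with thinned counts, 2057 genes and 1 member in rows A to C, and 716 genes and 0 members in rows D to F. For endometrium minus myometrium, with 4058 genes and 4 members, rows A to C gave 2170 genes and 2 members and rows D to F 1517 genes and 1 member.

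In WT endometrium minus uterus, 439 genes were called, against 239 in the fit of that pair, 1375 with spike-in scaling, 267 with thinned counts, 161 in rows A to C and 0 in rows D to F. In KO, 346 genes and 2 members were called. The block gave 560 genes, the fit of the pair 155 genes and 0 members, DESeq2 587 genes and 1 member, RLE factors 1 member, spike-in scaling 101 genes and 0 members, thinned counts 200 genes and 0 members, rows A to C 106 genes and 0 members, and rows D to F 6 genes and 0 members. In WT myometrium minus uterus, 1335 genes and 0 members were called, against 4015 genes and 3 members with spike-in scaling, 623 genes with thinned counts, 335 in rows A to C and 46 in rows D to F. In KO, 1711 genes and 3 members were called, against 5 members with spike-in scaling, 965 genes with thinned counts, 431 genes and 0 members in rows A to C, and 174 genes and 0 members in rows D to F. For KO minus WT, 0 genes became 1 in uterus with thinned counts. In endometrium they became 7 in the fit of 6 groups and 1 with DESeq2. In myometrium they became 1 with spike-in scaling, 3 without a filter and 2 with thinned counts, and none of these was a member.

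Leaving out each mouse in turn gave 1150 to 1455 genes and 0 to 2 members for endometrium minus uterus, 3162 to 4020 and 2 to 4 for myometrium minus uterus, and 3601 to 4123 and 4 to 5 for endometrium minus myometrium. Against uterus it gave 208 to 452 genes and 0 members in WT endometrium, 108 to 407 and 0 to 3 in KO endometrium, 625 to 1523 and 0 in WT myometrium, and 956 to 2016 and 0 to 4 in KO myometrium. Without the endometrium of KO mouse 13 alone, WT and KO endometrium gave 471 and 505 genes. For KO minus WT it gave 0 to 1 genes in uterus and myometrium and 0 in endometrium, with 0 members.

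Scaling moved the direction of calls. With RLE factors the genes higher and lower against uterus were 729 and 806 in endometrium and 2012 and 1726 in myometrium, and with spike-in scaling they were 129 and 1124 and 377 and 4933. In WT alone, RLE factors gave 221 and 203 in endometrium and 728 and 582 in myometrium, and spike-in scaling 41 and 1334 and 97 and 3918. In KO alone, myometrium had 854 and 830 with RLE factors and 166 and 2056 with spike-in scaling. Between the layers, spike-in scaling gave 3613 genes higher in endometrium and 987 lower. Fitting mouse as a replicate block changed the member calls given beside the results (Nr4a1, Jun, Atf3 and Junb) and no other. At library totals of 264095 to 1232992, genes with 0 or 1 count in most samples, such as Fosb, could show only large differences.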
